A study of Mus musculus with 36 samples.

Results

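The question addressed here was how gene expression in 4T1 primary tumors of an intraductal mouse model changed between 3 and 6 weeks post-inoculation (3 and 6 w p.i.). The 6 libraries titled as 4T1 tumors at these times were taken from the 36 libraries of the series, 3 per time point. 4T1 is a metastatic mammary carcinoma line of BALB/c origin, used as a model of triple-negative breast cancer and here carrying firefly luciferase. The cells were brought in Matrigel, a basement membrane gel, through the teat into the duct of the third gland of immunocompetent BALB/c females. These were mated at 8 weeks of age and inoculated in lactation, when their pups were weaned at 10 days. BALB/c glands given Matrigel alone, 3 libraries at each of the same times, served to show how the gland itself changed. Tumors of Py230, a mammary carcinoma line of C57BL/6 origin that grew in C57BL/6 females, were used for a test of whether a change was shared. Each tumor group came from 1 cell line. The study calls the tumor samples of a group independent. No source used here ties a library to a litter, a cage or a sequencing run, or says this of the glands. The p-values rest on the spread between libraries within groups, pooled over the 36 libraries of the series, which may in part be technical.

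As background, a gland that has stopped lactating loses its milk-producing alveoli and refills with adipocytes, and a carcinoma that fills the gland takes the place of epithelium, fat and stroma. 4T1 tumors are known for secreting granulocyte colony-stimulating factor (G-CSF), which drives the bone marrow to make neutrophils. Proliferating cells transcribe the genes of DNA replication and mitosis together, and cells short of oxygen transcribe those of glycolysis and pH control.

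The deposited values are scores. Every library is centred on 0 and scaled to an SD of 1 across its 21650 genes, so a score gives how many SDs of that library a gene lay above or below the average gene. Across the 12033 genes with a mean score above 0, the authors' pooled mean normalized count moved by 2.95 log2 units per score unit (r = 0.984 across genes). Differences below are week 6 minus week 3 in score units. Scores are not scaled to transcript length, so levels are compared between libraries and never between genes. A gene was called when the adjusted p of limma's test, fitted over all 36 libraries and adjusted over all genes, was under 0.05. An exact permutation test of 3 libraries against 3 cannot give a p below 0.10, so single genes rest on limma's fit and its pooled spread. When only the groups of the contrast were fitted, limma's adjusted p for Csn3, described below, was 0.000437 in place of 7.32e-13.

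The week 3 tumors were not alike, which touches every result. Week 3 libraries 2 and 3 correlated with each other at 0.988 over all genes and with the 6 Matrigel glands at 0.956 to 0.991, against 0.957 to 0.993 among the glands. Library 1 correlated with libraries 2 and 3 at 0.957 to 0.96 and with the glands at 0.923 to 0.95. The week 6 tumors correlated with each other at 0.987 to 0.993. A position between gland and tumor was computed over the 891 genes that were called and differed by over 1 score unit between the tumors and the glands of week 6, with 0% at the mean of those glands and 100% at the mean of those tumors. On it the week 3 tumors lay at 49.8%, 6.79% and 17%, the week 3 glands at 5.34%, 3.91% and 25.3%, and the week 6 tumors at 102%, 104% and 91.5%. Week 3 libraries 2 and 3 thus lay within the range of the glands although they are labelled as tumors. A total of 704 genes (3.25%) differed between the tumors and the glands at week 3, against 13015 (60.1%) at week 6. The defining epithelial marker Epcam did not separate the samples. It scored 1.63, 1.39 and 1.56 in the week 3 tumors and 1.9, 1.11 and 1.85 in the week 6 tumors and averaged 1.69 in the week 3 glands. Others of these markers, such as Krt19 and Krt7, differed between the weeks in opposite directions and are described below. In bulk RNA, fewer cells of a type and less RNA of that type per cell cannot be told apart. List counts below are followed by the counts without week 3 libraries 2 and 3, an alternative chosen after seeing the data, in which library 1 alone stands for week 3 and is assumed to vary like the libraries of the other groups. For single genes, the difference with library 1 alone is given where the call changed or the value moved by over 1.5 times.

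Between 3 and 6 w p.i., 11481 of 21650 genes (53%) were called, 7412 higher (34.2%) and 4069 lower (18.8%). List counts with all libraries are to be read beside these shares. The median difference over all genes was 0.0524, and 64.6% of the called genes were higher. That share was 48.6% of 10827 calls after cyclic loess, which brings the libraries to a common curve, so the excess of higher calls depends on the scaling. Differences of over 1 score unit were called for 117 genes that rose and 410 that fell. The 3 week 6 tumors did not overlap the 3 week 3 tumors in 12090 genes (55.8%), 36.5% of all genes with week 6 above and 19.4% with week 6 below. In the Matrigel glands, limma called 0 genes between the same weeks, 1207 (5.58%) had an unadjusted p under 0.05, and 15 were called when limma weighted the libraries by their quality. When the change of the glands was subtracted, 8008 genes (37%) were called, 5552 higher (25.6%) and 2456 lower (11.3%), a share of 69.3% higher that was 50.2% after cyclic loess, of which 7662 were also called with the same sign in the tumors alone. Without week 3 libraries 2 and 3, 7293 genes were called, 4488 higher (20.7%) and 2805 lower (13%), of which 85.1% were also called with the same sign in the full comparison.

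**Figure D1:**
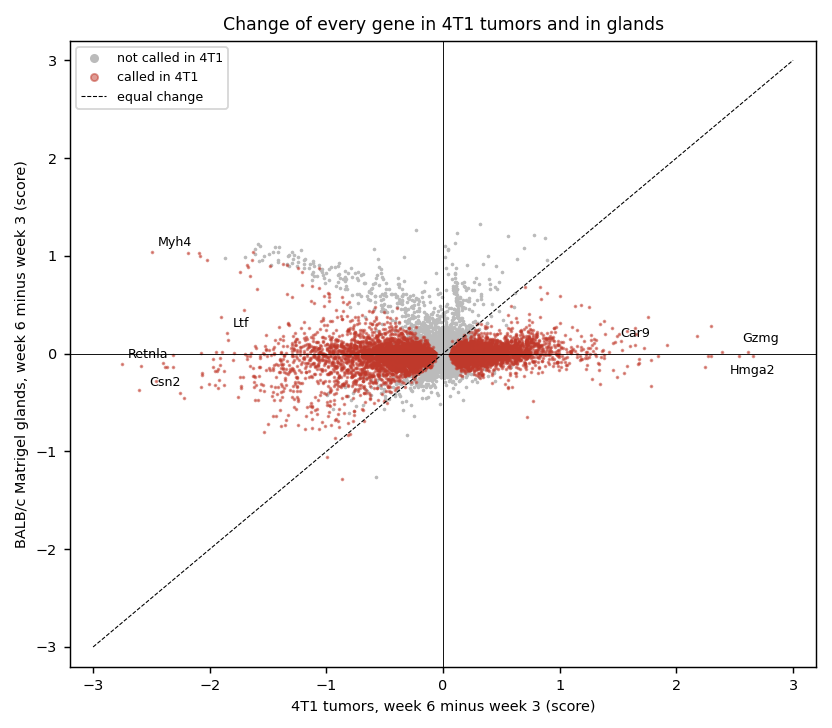
Change of each of the 21650 genes from week 3 to week 6 in score units, in 4T1 tumors (horizontal axis) and in BALB/c Matrigel glands (vertical axis). The 11481 genes called in the tumors are colored and spread along the horizontal axis, while 0 genes were called in the glands.

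The largest rise among genes of at least average level in the week 6 tumors, after the granzyme gene Gzmg, was that of Hmga2, which encodes a chromatin protein of embryonic and tumor cells. Hmga2 (ENSMUSG00000056758, chr10:120361275-120476469 in GRCm38) scored -0.174, -1.82 and -1.73 in the week 3 tumors and 1.35, 1.61 and 1.17 in the week 6 tumors. The difference was 2.62 (SE 0.228, adjusted p = 1.07e-09), and the glands averaged -1.85 and -1.83. Week 3 libraries 2 and 3 were at the level of the glands and library 1 lay between them and the week 6 tumors. Library 1 was the highest of the week 3 tumors for 11 of the 12 genes with the largest rises, and all 12 were still called without libraries 2 and 3 (Hmga2 1.55, adjusted p = 1.85e-08).

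Granzymes, the serine proteases of cytotoxic lymphocyte granules, gave 3 of the 12 largest rises, all from neighbouring genes on chromosome 14. Gzmg (chr14:56156582-56159579) scored -2.19, -2.22 and -2.21 in the week 3 tumors and 0.899, 1.69 and -1.24 in the week 6 tumors, a difference of 2.66 (SE 0.344, adjusted p = 5.89e-07). Gzmd (chr14:56129556-56132608) scored -1.82, -2.03 and -2.13 in the week 3 tumors and 0.714, 1.19 and -0.261 in the week 6 tumors, a difference of 2.54 (SE 0.182, adjusted p = 3.49e-11). Gzme (chr14:56117626-56120625) scored -1.33, -2.07 and -2.06 in the week 3 tumors and 0.437, 0.613 and 0.36 in the week 6 tumors, a difference of 2.29 (SE 0.128, adjusted p = 7.32e-13). None of the 3 genes overlapped between the time points, which was a condition for naming them. Week 6 library 3 was the lowest of its group for each. The glands stayed near the bottom of the scale, with Gzmg at -2.21 and -2.24. These paralogs are near identical, so how reads were divided among them is uncertain. Gzmb, the granzyme usually measured as a sign of cytotoxic activity, was not called and scored 0.485, -0.438 and -0.245 in the week 3 tumors and 0.151, 0.342 and -0.502 in the week 6 tumors.

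Genes best known from other tissues were among the other large rises. Dmp1, a matrix protein of bone and dentin, scored -0.112, -1.14 and -0.943 in the week 3 tumors and 1.48, 1.52 and 1.53 in the week 6 tumors (difference 2.24, SE 0.16, adjusted p = 3.48e-11). Msln, the surface glycoprotein mesothelin, scored -1.03, -1.63 and -1.77 in the week 3 tumors and 0.582, 0.468 and 1.06 in the week 6 tumors (difference 2.18, SE 0.168, adjusted p = 1.31e-10). Tmprss11e, a serine protease anchored in the cell membrane, scored -0.129, -1.64 and -1.64 in the week 3 tumors and 1.16, 1.14 and 1.19 in the week 6 tumors (difference 2.3, SE 0.297, adjusted p = 5.64e-07, with library 1 alone 1.29, adjusted p = 0.00397). Every week 6 tumor lay above every week 3 tumor in all 3 genes, which was a condition for naming them. That order was seen in 36.5% of all genes. Hhip, which binds Hedgehog ligands and holds them back, rose by 1.92 (with library 1 alone 1.19, adjusted p = 0.000263), Hao1, a peroxisomal oxidase known from liver, by 1.85, and Gpa33, a surface antigen of intestinal epithelium, by 1.78 (with library 1 alone 1.11, adjusted p = 6.76e-05). Npnt, an extracellular matrix ligand of integrins, scored 0.801, 0.595 and 0.244 in the week 3 tumors and 2.27, 2.16 and 2.49 in the week 6 tumors (difference 1.76, SE 0.126, adjusted p = 3.49e-11). Kdm4dl, annotated as an unprocessed pseudogene of a histone demethylase family, rose by 2.39, and reads of its relatives may be counted there.

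The 12 largest falls held secreted proteins of macrophages, milk and fat. Retnla, a secreted product of macrophages stimulated by interleukin-4 and also made by adipose tissue, scored 2.89, 2.51 and 1.99 in the week 3 tumors and -0.261, -0.359 and -0.239 in the week 6 tumors. Its difference of -2.75 (SE 0.244, adjusted p = 1.49e-09) was the largest fall. The week 3 tumors also lay above the gland mean of 1.81, though not all of them above every gland. Col6a5, a chain of collagen VI, scored 1.82, 1.38 and 0.947 in the week 3 tumors and -1, -1.05 and -0.902 in the week 6 tumors (difference -2.36, SE 0.265, adjusted p = 6.35e-08), against gland means of -0.138 and -0.272. Mrgprg, a receptor known from sensory neurons, scored 0.291, 1.15 and 0.713 in the week 3 tumors and -1.53, -1.51 and -1.48 in the week 6 tumors (difference -2.22, SE 0.315, adjusted p = 2.15e-06). For these 3 genes the week 3 tumors were above the mean of the glands and the week 6 tumors below it. Fcgbp, a mucus protein that binds IgG, scored 2.18, 2.46 and 2.59 in the week 3 tumors and 0.123, -0.325 and 0.478 in the week 6 tumors (difference -2.32, SE 0.196, adjusted p = 6.24e-10), and here the glands averaged 2.7. The others were the caseins Csn1s1, Csn2 and Csn3, the fat genes Car3, Cfd, Pck1 and Thrsp, and the muscle gene Myh4, described with their groups. Of the 12, all but Pck1 (adjusted p = 0.0716) and Myh4 (adjusted p = 0.222) were still called without libraries 2 and 3.

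**Figure D2:**
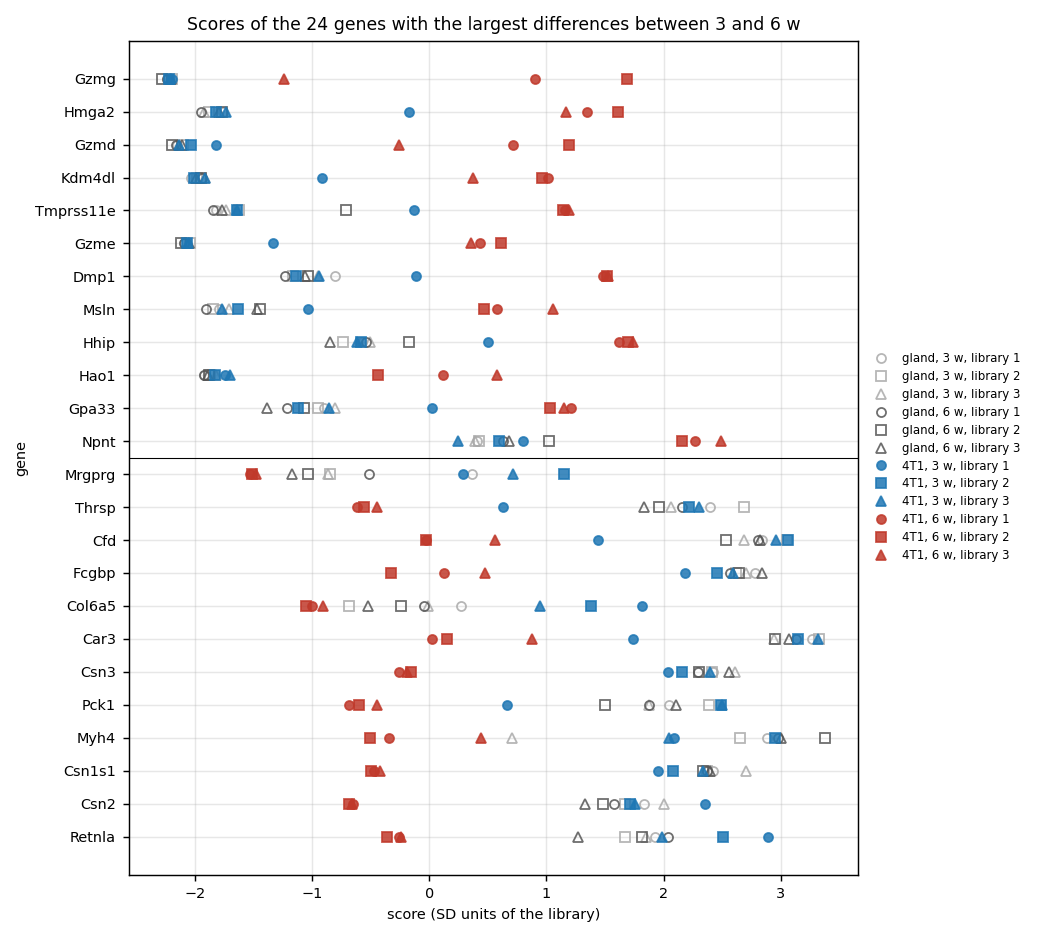
Scores of the genes with the 12 largest rises and the 12 largest falls in each 4T1 tumor library and Matrigel gland library of weeks 3 and 6. Points are single libraries; among the week 3 tumors library 1 is the highest for 11 of the 12 rising genes.

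Genes of DNA replication and mitosis rose without exception. All 30 replication genes measured were called higher, with a median difference of 0.45 against 0.0166 in the glands, and so were all 33 mitosis genes, with a median of 0.763 against 0.131. The background share of higher calls was 34.2%. The mean score of the mitosis list was 0.389, 0.00728 and -0.315 in the week 3 tumors, 0.666, 0.81 and 0.902 in the week 6 tumors and -0.451 to 0.0454 across the 6 glands. The same mean for replication was 0.296, 0.042 and -0.042 at week 3 and 0.507, 0.565 and 0.705 at week 6. Library 1 was again the highest of the week 3 tumors in both lists. Without libraries 2 and 3 only 12 replication genes and 3 mitosis genes were called, all higher, against 20.7% of all genes, with medians of 0.297 and 0.39. Of the Hallmark sets of the study, E2F targets had 163 of 191 genes higher and 3 lower (67 and 1 without libraries 2 and 3), and MYC targets V1 had 152 of 180 higher and 3 lower (95 and 0).

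Anln, an actin-binding protein of the cleavage furrow, scored 0.713, 0.289 and 0.0527 in the week 3 tumors and 1.2, 1.41 and 1.4 in the week 6 tumors (difference 0.987, SE 0.156, adjusted p = 9.47e-06, with library 1 alone 0.626, adjusted p = 0.0186). Ect2, which activates RhoA for cytokinesis, scored 0.297, -0.0753 and -0.326 in the week 3 tumors and 0.738, 0.854 and 1.04 in the week 6 tumors (difference 0.912, SE 0.156, adjusted p = 2.68e-05, with library 1 alone 0.58, adjusted p = 0.0311). Gins2, a subunit of the replicative helicase complex, scored -0.0299, -0.312 and -0.371 in the week 3 tumors and 0.32, 0.329 and 0.52 in the week 6 tumors (difference 0.628, SE 0.0936, adjusted p = 4.19e-06). Orc6, of the origin recognition complex, scored 0.216, 0.161 and 0.203 in the week 3 tumors and 0.575, 0.626 and 0.666 in the week 6 tumors (difference 0.429, SE 0.0465, adjusted p = 3.53e-08). These 4 genes did not overlap between the time points and were also called without libraries 2 and 3. Orc6 differed from the others in that week 3 library 1 was close to libraries 2 and 3. Mki67, which encodes the Ki-67 antigen by which pathologists grade proliferation, scored 1.21, 0.789 and 0.454 in the week 3 tumors and 1.33, 1.49 and 1.61 in the week 6 tumors (difference 0.659, SE 0.197, adjusted p = 0.00654), and without libraries 2 and 3 its difference was 0.263, adjusted p = 0.462.

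The promoters of these lists were searched for 8 motifs from 250 bases before to 50 after the start of each gene (RefSeq, GRCm38.p6), on both strands. The cell-cycle homology region TTTGAA was present in 22 of 28 mitosis promoters (78.6%) and in 18.1% of all 27025 promoters. The CCAAT box was present in 78.6% of the mitosis promoters against 37.9% of all. The E2F motif GCGGGAA was present in 10 of 25 replication promoters (40%) against 4.66% of all, and its variant GCGCGAA in 20% against 1.59%. The AP-1, NF-kB and interferon motifs were in 0 of the 25 replication promoters, and in 0, 1 and 1 of the 28 mitosis promoters. Their shares of all promoters were 7.93%, 1.43% and 3.49%, so lists of this size would hold few matches in any case. A match is a description of the letters and does not show that a factor binds. Promoters with the largest differences among those holding the motif are shown to let the motif be seen in place, with up to 30 bases on each side, upstream of the start, on the strand of the gene and with the motif in capitals. These genes were chosen after their values were seen.
Cdk1 (mitotic kinase, chr10:69352913-69352957, minus strand): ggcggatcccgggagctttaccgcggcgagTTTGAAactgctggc
Top2a (topoisomerase that separates chromatids, chr11:99024190-99024242, minus strand): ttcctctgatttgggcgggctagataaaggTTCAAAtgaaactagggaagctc
Ect2 (chr3:27153957-27154022, minus strand): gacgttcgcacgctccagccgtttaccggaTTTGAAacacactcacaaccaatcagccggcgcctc
Ccnb2 (B-type cyclin, chr9:70421686-70421751, minus strand): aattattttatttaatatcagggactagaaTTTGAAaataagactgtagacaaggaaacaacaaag
Cdc6 (loads the helicase at origins, chr11:98907983-98908049, plus strand): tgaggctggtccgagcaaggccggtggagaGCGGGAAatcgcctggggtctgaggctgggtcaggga
Prim1 (primase, chr10:128015170-128015214, plus strand): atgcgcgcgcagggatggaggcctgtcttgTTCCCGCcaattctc
The first 4 hold TTTGAA or its reverse complement TTCAAA, and the last 2 hold GCGGGAA or its reverse complement TTCCCGC. Cdk1 rose by 0.988, Top2a by 0.958, Ccnb2 by 0.881, Cdc6 by 0.7 and Prim1 by 0.477. Of these 5 genes only Prim1 was also called without libraries 2 and 3.

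Genes that slow the cell cycle moved the other way in part. Of 16 inhibitors and p53 targets, 9 were called lower and 2 higher (median -0.195), and 3 lower and 2 higher without libraries 2 and 3. Btg2, an antiproliferative target of p53, scored 1.13, 1.25 and 1.27 in the week 3 tumors and 0.627, 0.613 and 0.672 in the week 6 tumors (difference -0.579, SE 0.0716, adjusted p = 2.73e-07). Trp53inp1, another p53 target, fell by 0.51 on the score scale (adjusted p = 1.32e-05). Btg2 was above every gland at week 3, and both genes were below every gland at week 6. Gadd45a, induced by DNA damage and stress, rose instead, with 0.184, 0.26 and 0.389 in the week 3 tumors and 1.38, 1.16 and 1.21 in the week 6 tumors (difference 0.974, SE 0.0903, adjusted p = 2.81e-09), and the cyclin-dependent kinase inhibitor Cdkn1b differed by 0.172 (SE 0.0378, adjusted p = 0.000436, with library 1 alone 0.0992, adjusted p = 0.139).

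Milk genes fell, and more hormone receptors and luminal regulators fell than rose. Of 19 milk genes, 16 were called lower and 0 higher, against 18.8% lower over all genes, with a median of -1.01 and -0.0934 in the glands. Without libraries 2 and 3, 15 were lower. Csn2, beta-casein, scored 2.35, 1.71 and 1.76 in the week 3 tumors and -0.652, -0.687 and -0.658 in the week 6 tumors (difference -2.61, SE 0.185, adjusted p = 3.41e-11). Csn1s1, an alpha-casein, scored 1.95, 2.08 and 2.34 in the week 3 tumors and -0.47, -0.497 and -0.416 in the week 6 tumors (difference -2.59, SE 0.158, adjusted p = 2.57e-12), and Csn3, kappa-casein, 2.04, 2.16 and 2.4 in the week 3 tumors and -0.255, -0.157 and -0.191 in the week 6 tumors (difference -2.4, SE 0.133, adjusted p = 7.32e-13). All 3 week 3 tumors, library 1 included, were close to the glands, where Csn3 averaged 2.48, and all week 6 tumors were below the average gene of their library. Elf5, the transcription factor of alveolar cells, gave the smallest adjusted p of the list, at 0.99, 0.982 and 1.07 in the week 3 tumors and -0.796, -0.751 and -0.805 in the week 6 tumors (difference -1.8, SE 0.0795, adjusted p = 1.81e-14). Wap, a whey protein, and Lalba, which takes part in lactose synthesis, fell by 0.562 and 1.49 score units.

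Among hormone receptors and luminal regulators, 10 of 16 were lower and 2 higher (8 and 1 without libraries 2 and 3). Prlr, the prolactin receptor, scored 0.877, 1.72 and 1.62 in the week 3 tumors and -0.471, -0.572 and -0.271 in the week 6 tumors (difference -1.84, SE 0.147, adjusted p = 2.31e-10). Erbb2, which encodes HER2, was higher, at 0.597, 0.653 and 0.774 in the week 3 tumors and 1.1, 0.922 and 1.12 in the week 6 tumors (difference 0.374, SE 0.0765, adjusted p = 0.000216), and Gata3, a luminal transcription factor, rose by 0.261 (adjusted p = 0.0148, with library 1 alone 0.233, adjusted p = 0.165), which was lost when each library was rescaled by a robust line. Erbb2 had lower week 3 scores than the gland mean of 0.879, and its week 6 scores were around the gland mean of 0.985. Sox10, a factor of Schwann cells that mammary progenitors also express, scored 0.913, 0.867 and 1.04 in the week 3 tumors and -0.724, -0.79 and -0.705 in the week 6 tumors (difference -1.68, SE 0.0903, adjusted p = 6.37e-13) and stood at 1.23 in the glands.

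Epithelial genes split rather than moving as 1 group. Of 23 genes of the epithelial list, 7 rose, 4 fell and 12 were not called (median 0.0935, with 5 higher and 3 lower without libraries 2 and 3), near the background of 34.2% higher and 18.8% lower. Ehf, an epithelial ETS factor, scored 1.04, 0.848 and 0.993 in the week 3 tumors and -0.663, -0.746 and -0.533 in the week 6 tumors (difference -1.61, SE 0.112, adjusted p = 2.56e-11). Krt19, a keratin of ductal cells, scored 1.47, 1.64 and 1.63 in the week 3 tumors and 0.931, 0.659 and 1.02 in the week 6 tumors (difference -0.709, SE 0.106, adjusted p = 4.31e-06). Cldn4, a tight junction claudin, went up, with 0.9, 0.545 and 0.689 in the week 3 tumors and 1.73, 1.09 and 1.6 in the week 6 tumors (difference 0.762, SE 0.122, adjusted p = 1.07e-05), as did Spint1, an inhibitor of membrane serine proteases, by 0.444. The keratin pair Krt8 and Krt18 of simple epithelia rose by 0.383 and 0.318, and Krt7 by 0.632. The call of Krt7 was lost when limma was fitted to only the groups of the contrast (adjusted p = 0.0696). Cdh1, E-cadherin, was not called and scored 1.4, 1.04 and 1.2 in the week 3 tumors and 1.6, 1.01 and 1.63 in the week 6 tumors. Week 6 library 2 was the lowest of its group for Krt7, Krt8, Krt18, Krt19, Cldn4 and Cdh1, and the median of the list turned to -0.0464 without week 6 library 1.

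In the basal and keratinocyte list 5 of 22 genes were lower and 2 higher (22.7% and 9.09%, with a median of -0.0367), near or below the shares over all genes, and the same counts were found without libraries 2 and 3. Krt5, a basal keratin, scored 1.45, 1.12 and 1.07 in the week 3 tumors and -0.207, -0.708 and 0.766 in the week 6 tumors (difference -1.26, SE 0.236, adjusted p = 7.88e-05). Trp63, the p63 transcription factor of basal cells, scored 0.508, 0.623 and 0.596 in the week 3 tumors and -0.126, -0.663 and 0.00373 in the week 6 tumors (difference -0.837, SE 0.121, adjusted p = 2.68e-06). Col17a1, a transmembrane collagen, scored 1.19, 0.893 and 0.902 in the week 3 tumors and -0.284, -0.37 and 0.249 in the week 6 tumors (difference -1.13, SE 0.155, adjusted p = 1.31e-06). Itgb4, the integrin subunit of hemidesmosomes, rose, at 1.07, 0.842 and 0.76 in the week 3 tumors and 1.7, 1.66 and 1.78 in the week 6 tumors (difference 0.824, SE 0.0877, adjusted p = 2.65e-08). Week 6 library 3 kept the highest Krt5, Trp63 and Col17a1 of its group.

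Of 23 regulators and markers of epithelial-to-mesenchymal transition, 12 were higher and 5 lower (median 0.239), and 7 and 2 without libraries 2 and 3. Besides Hmga2, Itgb1, the beta-1 integrin subunit, scored 2.08, 1.97 and 1.98 in the week 3 tumors and 2.36, 2.4 and 2.36 in the week 6 tumors (difference 0.365, SE 0.0387, adjusted p = 2.47e-08). The repressors of E-cadherin did not share a direction. Snai2 scored 0.131, 0.42 and 0.311 in the week 3 tumors and -0.47, -0.516 and -0.171 in the week 6 tumors (difference -0.673, SE 0.105, adjusted p = 7.51e-06) and Zeb1 0.677, 1.06 and 0.979 in the week 3 tumors and 0.552, 0.468 and 0.652 in the week 6 tumors (difference -0.349, SE 0.0843, adjusted p = 0.00113), both lower at week 6, as was Zeb2 (difference -0.342, adjusted p = 0.00185). Snai1 and Twist1 rose by 0.484 (adjusted p = 1.03e-06) and 0.347 (adjusted p = 0.00193, with library 1 alone 0.64, adjusted p = 3.55e-05). Zeb2, Snai1 and Twist1 were chosen after their values were seen, to show both directions. Zeb1 was not called without libraries 2 and 3 (-0.12, adjusted p = 0.391).

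Of 34 hypoxia and glycolysis genes measured, 19 were called higher, 2 lower and 13 were not called, with a median of 0.252 against -0.00018 in the glands, but 4 higher and 1 lower without libraries 2 and 3, fewer than the 20.7% of all genes that were higher there. Car9, carbonic anhydrase IX, which exports acid from hypoxic cells, scored -0.104, -0.711 and -0.809 in the week 3 tumors and 0.951, 1.05 and 0.791 in the week 6 tumors (difference 1.47, SE 0.155, adjusted p = 2.27e-08). Hilpda, a lipid droplet protein induced by hypoxia, scored 0.132, 0.0197 and 0.168 in the week 3 tumors and 0.572, 0.589 and 0.432 in the week 6 tumors (difference 0.424, SE 0.0727, adjusted p = 2.61e-05). Week 6 library 3 was the lowest week 6 tumor for both, and neither overlapped the week 3 tumors. Lower instead were 2 genes. Pfkfb3, an activator of glycolysis also abundant in fat, differed by -0.427 (SE 0.14, adjusted p = 0.0124, with library 1 alone -0.0852, adjusted p = 0.747), and Aldoc, a glycolytic aldolase, by -0.308 (SE 0.116, adjusted p = 0.0282, with library 1 alone -0.262, adjusted p = 0.224). Vegfa, the hypoxia-induced vascular growth factor, was not called and scored 0.968, 1.27 and 1.24 in the week 3 tumors and 1.19, 1.31 and 1.25 in the week 6 tumors.

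The letters ACGTG, the core of the hypoxia response element, were found on either strand in 18 of 32 promoters of the hypoxia list (56.2%) and in 19.7% of all 27025 promoters. The promoters of the called genes with the largest differences among those holding it are shown with the motif in capitals.
Car9 (chr4:43506978-43507025, plus strand): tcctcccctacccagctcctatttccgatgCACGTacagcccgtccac
Egln3 (prolyl hydroxylase that marks HIF for degradation, chr12:54204069-54204124, minus strand): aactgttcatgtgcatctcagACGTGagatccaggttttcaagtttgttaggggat
In Car9 the motif is read on the opposite strand, as CACGT, and lies close to the start of the gene. Egln3 rose by 0.896 (adjusted p = 0.000237) and differed by 0.453, adjusted p = 0.148 without libraries 2 and 3.

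Stress genes moved in both directions. In the NRF2 and antioxidant list 4 of 17 genes were higher and 7 lower (median -0.156), and without libraries 2 and 3 these were 4 and 2. Nqo1, a quinone reductase and standard NRF2 target, scored 0.115, 0.279 and 0.529 in the week 3 tumors and -0.264, -0.707 and -0.541 in the week 6 tumors (difference -0.812, SE 0.0992, adjusted p = 2.31e-07). Gsr, glutathione reductase, rose by 0.348 and Txnrd1, thioredoxin reductase, by 0.227, with adjusted p of 4.41e-07 and 1.54e-06. Gstm1, a glutathione transferase with close paralogs, scored 0.391, 1.12 and 1.1 in the week 3 tumors and -0.269, -0.24 and -0.168 in the week 6 tumors (difference -1.1, SE 0.167, adjusted p = 5.61e-06, with library 1 alone -0.616, adjusted p = 0.0213). Of 19 genes of the unfolded protein and amino acid response, 5 were higher and 3 lower, and 3 and 3 without libraries 2 and 3. Shmt2, a mitochondrial enzyme of serine metabolism, rose by 0.364 (with library 1 alone 0.207, adjusted p = 0.0159), and Trib3, a target of ATF4, by 0.355. Herpud1, of endoplasmic reticulum degradation, differed by -0.299 (SE 0.0533, adjusted p = 4.33e-05) and Vldlr, a lipoprotein receptor, by -0.797 (SE 0.148, adjusted p = 7.01e-05, with library 1 alone -0.376, adjusted p = 0.109).

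Neutrophil genes rose, and with them the factors that call neutrophils in. In the neutrophil list 22 of 32 genes were higher and 2 lower, with a median of 0.513 against -0.032 in the glands, and 14 higher and 2 lower without libraries 2 and 3. Of the defining markers, S100a8, a subunit of calprotectin, scored 0.0608, -0.421 and -0.748 in the week 3 tumors and 1.11, 0.889 and 0.895 in the week 6 tumors (difference 1.33, SE 0.156, adjusted p = 1.22e-07). Ly6g, the surface antigen of mouse neutrophils, scored -2.08, -2.23 and -2.08 in the week 3 tumors and -1.57, -1.76 and -1.8 in the week 6 tumors (difference 0.417, SE 0.0491, adjusted p = 1.26e-07), close to the bottom of the scale throughout. The receptor gene Cxcr2 rose by 0.781 (adjusted p = 0.00209), but not without libraries 2 and 3 (0.232, adjusted p = 0.486). Mmp8, the neutrophil collagenase, scored -0.654, -1.05 and -1.34 in the week 3 tumors and 0.179, 0.139 and -0.168 in the week 6 tumors (difference 1.07, SE 0.15, adjusted p = 1.88e-06, with library 1 alone 0.705, adjusted p = 0.0056). The stefin genes Stfa2 and Stfa2l1, inhibitors of cysteine proteases with near-identical copies, rose by 0.979 and 0.772. For these genes week 3 library 1 lay above libraries 2 and 3 or beside them, and below every week 6 tumor. Both genes of the list that fell are also made by other cells of the gland. Ltf, lactoferrin, found in milk as well as in granules, scored 2.43, 2.32 and 2.57 in the week 3 tumors and 0.768, 0.499 and 0.487 in the week 6 tumors (difference -1.85, SE 0.126, adjusted p = 1.82e-11). G0s2, an inhibitor of lipolysis in fat, differed by -0.618 (SE 0.15, adjusted p = 0.00119, with library 1 alone -0.118, adjusted p = 0.615). Without libraries 2 and 3 the 2 lower genes were Ltf and Chil3, the latter named after its values were seen.

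Of 14 neutrophil-directing factors, 10 were called higher and 1 lower (median 0.579), and 6 and 1 without libraries 2 and 3. Csf3, which encodes G-CSF, scored -0.83, -1.04 and -1.35 in the week 3 tumors and 0.388, 0.351 and 0.17 in the week 6 tumors (difference 1.38, SE 0.153, adjusted p = 5.41e-08). The glands averaged -1.12 and -1.08, so week 3 libraries 2 and 3 were at their level. Il23a, a subunit of interleukin-23, scored -0.717, -1.73 and -1.4 in the week 3 tumors and 0.0472, -0.334 and 0.101 in the week 6 tumors (difference 1.22, SE 0.162, adjusted p = 7.95e-07, with library 1 alone 0.655, adjusted p = 0.00358). Cxcl2, a ligand of CXCR2, scored -0.837, -0.522 and -0.469 in the week 3 tumors and 0.257, 0.132 and 0.262 in the week 6 tumors (difference 0.826, SE 0.194, adjusted p = 0.000877), and here library 1 was the lowest of the week 3 tumors. Ppbp, a platelet chemokine that also binds CXCR2, rose by 0.315 (adjusted p = 0.00096, with library 1 alone 0.183, adjusted p = 0.174). Tnf was the exception, at -0.235, -0.197 and -0.398 in the week 3 tumors and -0.692, -0.652 and -0.806 in the week 6 tumors (difference -0.44, SE 0.113, adjusted p = 0.00193). Il6 and Il1b were not called, with Il6 at -0.807, -0.932 and -1.03 in the week 3 tumors and -1.07, -0.985 and -0.807 in the week 6 tumors and Il1b at 0.87, 0.25 and 0.369 in the week 3 tumors and 1.21, 0.914 and 1.12 in the week 6 tumors.

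**Figure D3:**
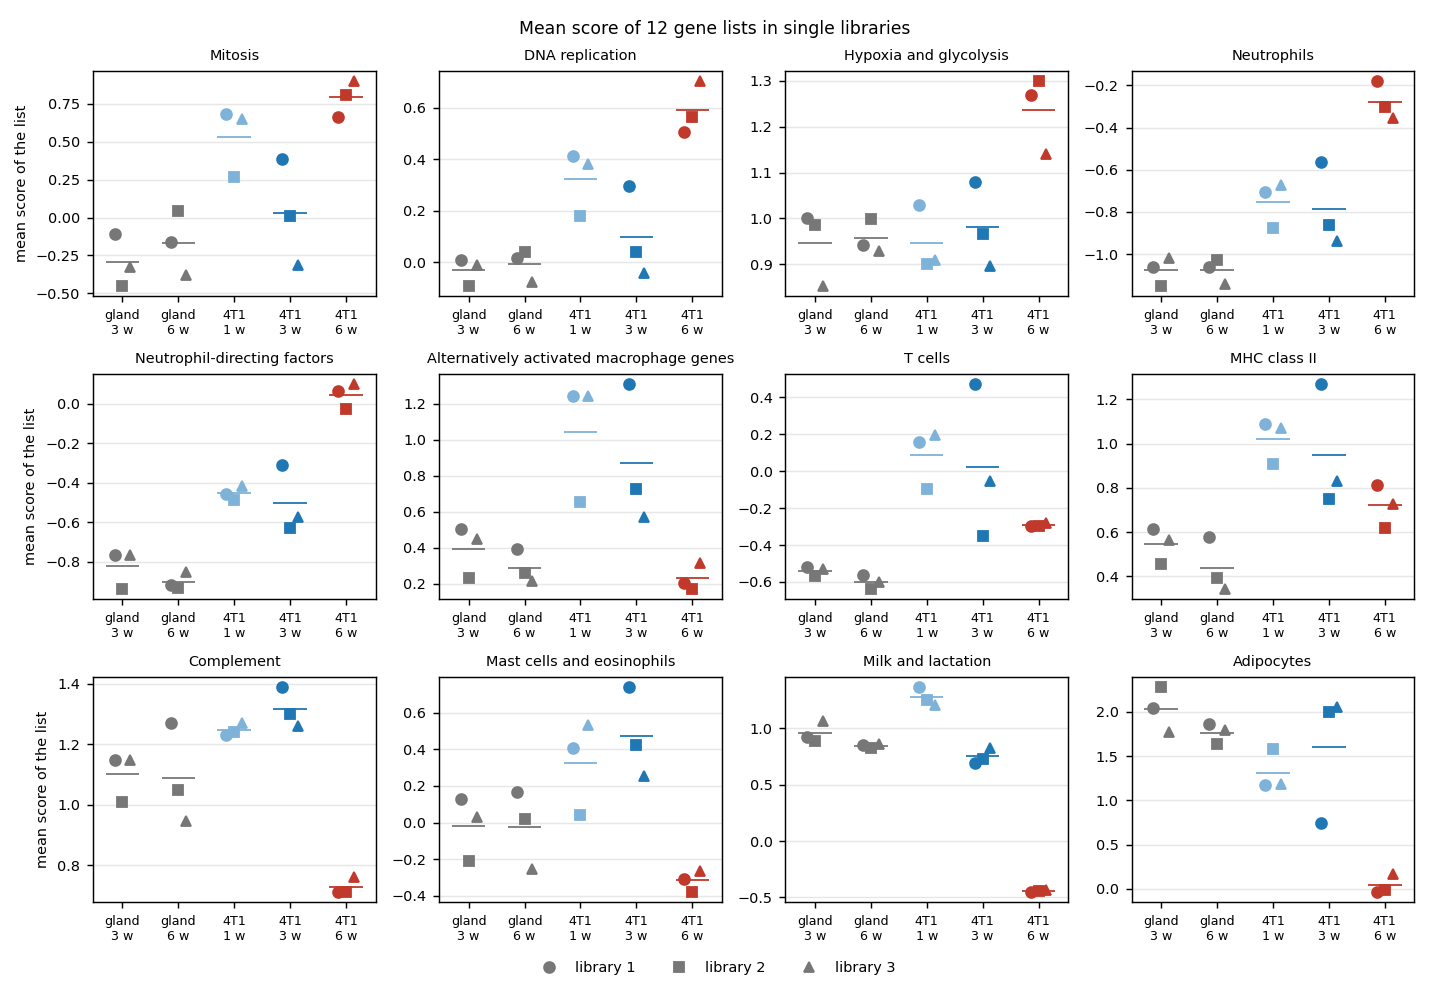
Mean score of selected gene lists in each 4T1 tumor library and BALB/c Matrigel gland library. Points are libraries; the adipocyte mean is 0.744, 2 and 2.05 in the week 3 tumors, so library 1 stands apart from libraries 2 and 3.

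Macrophage genes fell more often than they rose. In the monocyte and macrophage list 9 of 29 genes were lower and 3 higher (median -0.147), and 16 and 2 without libraries 2 and 3. Adgre1, which encodes F4/80, scored 1.81, 1.47 and 1.36 in the week 3 tumors and 1.11, 1.1 and 1.14 in the week 6 tumors (difference -0.433, SE 0.14, adjusted p = 0.0112, with library 1 alone -0.696, adjusted p = 0.00662), while Csf1r, the receptor on which macrophages depend, was not called and scored 2.39, 1.9 and 1.79 in the week 3 tumors and 1.86, 1.76 and 1.84 in the week 6 tumors (with library 1 alone -0.563, adjusted p = 0.0289). Ly6c2, of inflammatory monocytes, scored 0.85, 0.72 and 0.813 in the week 3 tumors and 0.161, -0.216 and 0.0674 in the week 6 tumors (difference -0.79, SE 0.113, adjusted p = 2.36e-06). Gpnmb, a glycoprotein of lysosome-rich macrophages, differed by -0.895 (SE 0.213, adjusted p = 0.000982, with library 1 alone -0.796, adjusted p = 0.0507). Cx3cr1, the fractalkine receptor, was higher, at 0.629, 0.105 and 0.348 in the week 3 tumors and 1.31, 1.31 and 1.39 in the week 6 tumors (difference 0.976, SE 0.158, adjusted p = 1.27e-05), and so was its ligand Cx3cl1, by 0.453 (adjusted p = 0.000192). Msr1, a scavenger receptor, rose by 0.846, but not without libraries 2 and 3 (0.364, adjusted p = 0.176).

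The genes of alternatively activated macrophages gave larger falls. Of 21 measured, 10 were lower and 2 higher, with a median of -0.544, and 16 lower and 0 higher without libraries 2 and 3. Clec10a, a lectin of macrophages and dendritic cells, scored 1.6, 1.49 and 1.26 in the week 3 tumors and -0.327, -0.164 and 0.0285 in the week 6 tumors (difference -1.6, SE 0.155, adjusted p = 5.9e-09). Irf4, a transcription factor of interleukin-4 signalling and plasma cells, scored 1.07, 0.944 and 0.688 in the week 3 tumors and -0.443, -0.369 and -0.252 in the week 6 tumors (difference -1.26, SE 0.135, adjusted p = 3.09e-08). Cd163, the hemoglobin scavenger receptor, scored 1.98, 1.66 and 1.15 in the week 3 tumors and 0.618, 0.643 and 0.949 in the week 6 tumors (difference -0.859, SE 0.223, adjusted p = 0.00217). In these 3 genes library 1 was the highest of the week 3 tumors, as it was for Retnla, so the differences were larger without libraries 2 and 3 (Retnla -3.17, adjusted p = 2.2e-07). Arg1, arginase 1, went against the list at 2.14, 0.796 and 0.53 in the week 3 tumors and 1.76, 1.81 and 1.75 in the week 6 tumors (difference 0.619, SE 0.262, adjusted p = 0.049), was lost under cyclic loess, and turned sign without libraries 2 and 3 (-0.364, adjusted p = 0.291). Myc, which alternative activation induces and carcinoma cells also express, rose by 0.298 (with library 1 alone 0.263, adjusted p = 0.0641). Of 19 pro-inflammatory genes, 3 were higher and 2 lower, and 1 and 6 without libraries 2 and 3. Ptgs2, cyclooxygenase 2, scored 0.255, 0.16 and 0.00177 in the week 3 tumors and 1.26, 1.51 and 0.932 in the week 6 tumors (difference 1.1, SE 0.167, adjusted p = 5.7e-06). Slc7a2, an arginine transporter, fell at 1.87, 1.31 and 1.13 in the week 3 tumors and 0.8, 0.615 and 0.783 in the week 6 tumors (difference -0.702, SE 0.148, adjusted p = 0.000285, with library 1 alone -1.13, adjusted p = 3.41e-05), and Cd38, an enzyme that consumes NAD, rose by 0.443 (with library 1 alone 0.108, adjusted p = 0.44) with all libraries.

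Mast cell and eosinophil genes fell together. Of 17 measured, 13 were called lower and 0 higher, with a median of -0.771 against 0.0171 in the glands and 16 lower without libraries 2 and 3. Ear2, an eosinophil ribonuclease with near-identical copies, scored 1.74, 0.947 and 0.651 in the week 3 tumors and -0.715, -0.68 and -0.467 in the week 6 tumors (difference -1.73, SE 0.217, adjusted p = 3.46e-07). Ccl11, eotaxin, the chemokine that attracts eosinophils, scored 1.43, 1.23 and 1.17 in the week 3 tumors and 0.153, 0.165 and 0.319 in the week 6 tumors (difference -1.06, SE 0.121, adjusted p = 7.46e-08). For both genes all week 3 tumors lay above all 6 glands and all week 6 tumors below all week 3 tumors. A position of all week 3 tumors above every gland and every week 6 tumor was seen for 384 genes (1.77%). Among them were 5 of 17 genes of the mast cell and eosinophil list, 7 of 28 chemokines and 6 of 21 cytotoxic lymphocyte genes. They also held 5 of 14 MHC class II genes and 5 of 30 T cell genes. The week 1 tumors were not part of this count, so it does not show a peak at week 3. In each of these lists the mean scores of the week 1 and week 3 tumors overlapped. MHC class II averaged 1.09, 0.907 and 1.07 in the week 1 tumors and 1.27, 0.752 and 0.83 in the week 3 tumors. The mast cell and eosinophil list averaged 0.405, 0.0435 and 0.535 against 0.741, 0.424 and 0.253. Some genes belong to more than 1 of these lists.

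In the chemokine list 11 of 28 genes were lower and 3 higher (median -0.258), and 13 lower and 1 higher without libraries 2 and 3. Cxcl12, a stromal chemokine that retains CXCR4-bearing cells, scored 1.69, 1.86 and 1.83 in the week 3 tumors and 0.442, 0.684 and 0.657 in the week 6 tumors (difference -1.2, SE 0.083, adjusted p = 2.42e-11), against gland means of 1.76 and 1.84. Ccl25, a gut and thymus chemokine, rose by 0.253 (adjusted p = 0.0112, with library 1 alone 0.245, adjusted p = 0.117). Ccl2, the monocyte chemokine, was not called and scored 0.742, 0.511 and 0.676 in the week 3 tumors and 0.437, 0.458 and 0.587 in the week 6 tumors.

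T cell genes were lower or not called, and their falls leaned on week 3 library 1. The mean score of the list was 0.472, -0.351 and -0.0522 in the week 3 tumors and -0.295, -0.296 and -0.279 in the week 6 tumors. Week 3 library 2 was thus below every week 6 tumor. Without week 3 library 1 the median difference was -0.0855. Of 30 measured, 11 were lower and 0 higher (median -0.319), 5 were lower after quantile normalization, and 26 were lower without libraries 2 and 3, where the median was -0.792. Cd4, the coreceptor of helper T cells, scored 0.823, 0.0717 and 0.536 in the week 3 tumors and -0.163, -0.353 and -0.391 in the week 6 tumors (difference -0.779, SE 0.153, adjusted p = 0.000136). Cd2, an adhesion receptor of T and NK cells, scored 0.503, -0.129 and 0.0969 in the week 3 tumors and -0.446, -0.582 and -0.405 in the week 6 tumors (difference -0.635, SE 0.122, adjusted p = 0.00011, with library 1 alone -0.98, adjusted p = 1.86e-05). Foxp3, the factor of regulatory T cells, scored 0.591, 0.0155 and 0.12 in the week 3 tumors and 0.0204, -0.0602 and 0.0597 in the week 6 tumors (difference -0.236, SE 0.1, adjusted p = 0.0493, with library 1 alone -0.585, adjusted p = 0.000189). Library 1 had the most of all 3 transcripts among the 6 tumors, and for Foxp3 week 6 tumors 1 and 3 overlapped week 3 library 2, and its call was lost after quantile normalization. Cd8a and Cd3e were not called, with Cd8a at 0.742, -0.54 and -0.0245 in the week 3 tumors and 0.0973, 0.207 and 0.262 in the week 6 tumors. Cd3e scored 0.441, -0.524 and -0.19 in the week 3 tumors and -0.357, -0.343 and -0.289 in the week 6 tumors (with library 1 alone -0.77, adjusted p = 0.00215).

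Among cytotoxic lymphocyte genes 7 of 21 were lower and 3 higher (14 and 3 without libraries 2 and 3). The median difference of the list was -0.176, and 0.0117 without week 3 library 1. The 3 that rose were Gzmc, Gzmd and Gzme of the chromosome 14 cluster, of which Gzmc was named after its values were seen. Gzma, a granzyme of NK and T cells, scored 0.464, 0.00111 and 0.101 in the week 3 tumors and -0.568, -0.711 and -0.491 in the week 6 tumors (difference -0.779, SE 0.136, adjusted p = 3.37e-05). Ncr1, the NKp46 receptor of NK cells, scored 0.156, -0.228 and 0.124 in the week 3 tumors and -0.628, -0.83 and -0.927 in the week 6 tumors (difference -0.813, SE 0.118, adjusted p = 2.85e-06). Both fell below every week 3 tumor, opposite to the cluster. Ifng, interferon gamma, was not called and scored -1.03, -1.71 and -1.53 in the week 3 tumors and -1.41, -1.48 and -1.48 in the week 6 tumors (with library 1 alone -0.423, adjusted p = 0.00236).

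Immune checkpoint genes gave 4 higher and 4 lower of 19, and 2 and 8 without libraries 2 and 3. With all libraries this was 21.1% in each direction, against 34.2% higher and 18.8% lower over all genes. The median difference was -0.0858, and 0.0572 without week 3 library 1. Nt5e, CD73, which makes adenosine from AMP, scored 0.79, 0.617 and 0.347 in the week 3 tumors and 1.9, 1.97 and 1.76 in the week 6 tumors (difference 1.29, SE 0.0825, adjusted p = 5.16e-12). Cd276, the B7-H3 ligand, scored 0.782, 0.458 and 0.444 in the week 3 tumors and 1.3, 1.25 and 1.28 in the week 6 tumors (difference 0.715, SE 0.0844, adjusted p = 1.36e-07). Both genes rose in all 3 week 6 tumors without overlap, and which cells expressed them was not tested. Btla, a receptor of lymphocytes, differed by -0.486 (SE 0.143, adjusted p = 0.00582) and Vtcn1, the B7-H4 ligand of epithelium, by -0.54 (SE 0.155, adjusted p = 0.0048, with library 1 alone -0.467, adjusted p = 0.113). Pdcd1, which encodes PD-1, was not called and scored 0.232, -0.678 and -0.443 in the week 3 tumors and -0.142, -0.11 and 0.00282 in the week 6 tumors.

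B cell and plasma cell genes were lower in 13 of 23, 8 when each library was rescaled by a robust line, and higher in 1 (median -0.275, 14 lower without libraries 2 and 3). Ighm, the heavy chain of IgM, scored 1.69, 1.22 and 1.07 in the week 3 tumors and 0.171, 0.264 and 0.612 in the week 6 tumors (difference -0.979, SE 0.147, adjusted p = 4.89e-06). Sdc1, syndecan 1, a plasma cell marker that epithelium expresses as well, rose by 0.578 (adjusted p = 0.000184, with library 1 alone 0.294, adjusted p = 0.135). Among dendritic cell genes 7 of 17 were lower and 3 higher (11 and 2 without libraries 2 and 3). Cd209a, of monocyte-derived dendritic cells, scored 1.12, 0.774 and 0.493 in the week 3 tumors and -0.912, -0.998 and -0.329 in the week 6 tumors (difference -1.54, SE 0.185, adjusted p = 1.81e-07), and Siglech, a marker of plasmacytoid dendritic cells, 0.37, -0.0639 and 0.0592 in the week 3 tumors and -0.742, -1.11 and -0.901 in the week 6 tumors (difference -1.04, SE 0.115, adjusted p = 5.13e-08). Fscn1, an actin bundler of mature dendritic and carcinoma cells, was higher, at 1.35, 1.04 and 1.23 in the week 3 tumors and 1.69, 1.71 and 1.71 in the week 6 tumors (difference 0.495, SE 0.0726, adjusted p = 3.38e-06), as was the transcription factor Tcf4, by 0.349.

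With all libraries, MHC class II genes were called lower in 35.7%, against 18.8% of all genes, and MHC class I genes gave few calls. MHC class II had 5 of 14 genes lower and 0 higher (10 lower without libraries 2 and 3). H2-Aa, a class II alpha chain, scored 3.02, 2.28 and 2.31 in the week 3 tumors and 2.2, 1.85 and 2.02 in the week 6 tumors (difference -0.512, SE 0.161, adjusted p = 0.00929, with library 1 alone -0.996, adjusted p = 0.000349), and H2-Ob, a chain of the peptide exchange regulator of B cells, -0.0689, -0.485 and -0.361 in the week 3 tumors and -0.706, -0.823 and -0.672 in the week 6 tumors (difference -0.429, SE 0.117, adjusted p = 0.00318, with library 1 alone -0.665, adjusted p = 0.00205). All 3 week 3 tumors were above all 6 glands for both genes, and library 1 was the highest. MHC class I and peptide loading had 2 of 23 higher and 0 lower, a direction that turned to 0 higher and 6 lower under the robust line and to 0 and 9 without libraries 2 and 3. The called genes were Canx, the chaperone calnexin, and the proteasome activator Psme1. Canx rose by 0.203 (with library 1 alone 0.11, adjusted p = 0.115) and Psme1 by 0.174 (with library 1 alone -0.0442, adjusted p = 0.699), and both calls were lost under the robust line.

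Of 40 interferon-stimulated genes, 7 were higher and 1 lower, 1 and 2 after cyclic loess, and 1 and 3 without libraries 2 and 3, below the background of 34.2% and 18.8%. Isg20, an exonuclease, scored 0.0702, 0.113 and 0.182 in the week 3 tumors and 0.452, 0.417 and 0.373 in the week 6 tumors (difference 0.292, SE 0.0565, adjusted p = 0.000113). Isg15, a ubiquitin-like modifier, differed by 0.409 (SE 0.144, adjusted p = 0.0188, with library 1 alone 0.186, adjusted p = 0.501), which was lost after cyclic loess, and Ifi27l2a, a small membrane protein, by -0.641 (SE 0.161, adjusted p = 0.00159, with library 1 alone -0.266, adjusted p = 0.347).

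Complement genes fell. Of 21 measured, 13 were lower and 1 higher (median -0.461, and -0.0129 in the glands), and 18 were lower without libraries 2 and 3. C3, the component on which all complement pathways converge, scored 2.99, 2.93 and 2.78 in the week 3 tumors and 1.46, 1.37 and 1.63 in the week 6 tumors (difference -1.42, SE 0.144, adjusted p = 1.32e-08). Cd55, decay-accelerating factor, which protects cells from complement, scored 0.764, 1.23 and 1.11 in the week 3 tumors and -0.419, -0.0354 and -0.354 in the week 6 tumors (difference -1.3, SE 0.104, adjusted p = 2.64e-10). The week 3 tumors were above all 6 glands for C3, and the week 6 tumors were below all of them. Masp1, a protease of the lectin pathway, differed by 0.292 (SE 0.111, adjusted p = 0.0286, with library 1 alone 0.0138, adjusted p = 0.95), which was lost after cyclic loess.

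Collagen and fibroblast genes fell in number, with 16 of 33 lower and 2 higher (median -0.258), and 12 lower and 3 higher without libraries 2 and 3. Dcn, the proteoglycan decorin, scored 2.11, 2.55 and 2.54 in the week 3 tumors and 1.35, 1.13 and 1.53 in the week 6 tumors (difference -1.07, SE 0.17, adjusted p = 1.05e-05). Col8a1, a short-chain collagen, went up, at 0.627, 0.809 and 0.951 in the week 3 tumors and 1.86, 1.69 and 1.82 in the week 6 tumors (difference 0.991, SE 0.103, adjusted p = 1.8e-08). Col12a1, a fibril-associated collagen, scored 1.6, 0.721 and 0.799 in the week 3 tumors and 1.9, 1.65 and 2 in the week 6 tumors (difference 0.808, SE 0.165, adjusted p = 0.000208, with library 1 alone 0.247, adjusted p = 0.304), and there week 3 library 1 lay just below the lowest week 6 tumor. The defining fibroblast genes Col1a1 and Pdgfra were not called, with Col1a1 at 2.68, 2.62 and 2.51 in the week 3 tumors and 2.54, 2.51 and 2.81 in the week 6 tumors and Pdgfra at 1.31, 1.76 and 1.69 in the week 3 tumors and 1.5, 1.65 and 1.45 in the week 6 tumors. In the list of proteases and their inhibitors 9 of 26 were lower and 5 higher (6 and 1 without libraries 2 and 3). Timp3, a metalloprotease inhibitor bound to matrix, scored 1.32, 1.69 and 1.6 in the week 3 tumors and 0.865, 0.823 and 0.986 in the week 6 tumors (difference -0.647, SE 0.0654, adjusted p = 1.13e-08). Adamts5 and Adamts4, which both cut aggrecan, differed by -0.997 (SE 0.145, adjusted p = 2.96e-06) and by 0.449 (SE 0.103, adjusted p = 0.000657, with library 1 alone 0.287, adjusted p = 0.123). Mmp9, gelatinase B, was not called and scored 1.09, 0.643 and 0.515 in the week 3 tumors and 1.24, 1.04 and 1.19 in the week 6 tumors.

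Endothelial genes split. Of 28 endothelial and angiogenic genes 9 were lower and 6 higher, and 3 lower and 8 higher without libraries 2 and 3, where the median turned from -0.0973 to 0.137. Esm1, endocan, a product of sprouting tip cells, scored -0.921, -0.751 and -0.712 in the week 3 tumors and 0.419, 0.531 and 0.301 in the week 6 tumors (difference 1.21, SE 0.124, adjusted p = 1.42e-08). Pgf, placental growth factor, scored -0.185, -0.3 and -0.258 in the week 3 tumors and 0.554, 0.414 and 0.339 in the week 6 tumors (difference 0.683, SE 0.111, adjusted p = 1.37e-05). Neither gene overlapped between the time points, and week 3 library 1 was the lowest week 3 tumor for Esm1 and the highest for Pgf. Vwf, von Willebrand factor of larger vessels, scored 1.02, 1.35 and 1.2 in the week 3 tumors and 0.703, 0.413 and 0.566 in the week 6 tumors (difference -0.628, SE 0.102, adjusted p = 1.26e-05), and Vegfd, a lymphatic growth factor, 0.0889, 0.515 and 0.404 in the week 3 tumors and -0.673, -0.565 and -0.53 in the week 6 tumors (difference -0.925, SE 0.14, adjusted p = 5.42e-06). Pecam1, CD31, differed by -0.198 (SE 0.0463, adjusted p = 0.000826, with library 1 alone -0.162, adjusted p = 0.0629), and Cdh5, VE-cadherin, was not called at 1.16, 1.44 and 1.57 in the week 3 tumors and 1.41, 1.31 and 1.32 in the week 6 tumors.

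Adipocyte genes fell in nearly every case. Of 28 measured, 27 were called lower and 0 higher, with a median of -1.59 against -0.222 in the glands. The mean score of the list was 0.744, 2 and 2.05 in the week 3 tumors, -0.0317, -0.0145 and 0.165 in the week 6 tumors and 1.63 to 2.28 across the 6 glands. Libraries 2 and 3 of week 3 thus carried the adipocyte level of a gland, and without them 9 genes were called lower, with a median of -0.725. Thrsp, a regulator of lipogenesis, scored 0.626, 2.22 and 2.3 in the week 3 tumors and -0.617, -0.555 and -0.441 in the week 6 tumors (difference -2.25, SE 0.285, adjusted p = 4.01e-07, with library 1 alone -1.16, adjusted p = 0.00261). Lpl, lipoprotein lipase, scored 2.08, 2.81 and 2.96 in the week 3 tumors and 0.516, 0.534 and 0.99 in the week 6 tumors (difference -1.94, SE 0.236, adjusted p = 2.33e-07). Cfd, adipsin, scored 1.44, 3.06 and 2.96 in the week 3 tumors and -0.0285, -0.0241 and 0.565 in the week 6 tumors (difference -2.31, SE 0.364, adjusted p = 9e-06, with library 1 alone -1.26, adjusted p = 0.0308). Car3, carbonic anhydrase III of fat and muscle, scored 1.74, 3.15 and 3.32 in the week 3 tumors and 0.0243, 0.156 and 0.878 in the week 6 tumors (difference -2.38, SE 0.365, adjusted p = 6.26e-06, with library 1 alone -1.39, adjusted p = 0.0214). Pck1, which makes the glycerol backbone of fat, scored 0.667, 2.49 and 2.5 in the week 3 tumors and -0.685, -0.597 and -0.449 in the week 6 tumors (difference -2.46, SE 0.429, adjusted p = 3.37e-05, with library 1 alone -1.24, adjusted p = 0.0716). The defining marker Adipoq, adiponectin, fell by 2.07 score units (adjusted p = 4.14e-05), and without libraries 2 and 3 its difference was -1.02, adjusted p = 0.0823. The part of these host cells in the falls of other lists was not tested; Retnla and Csn2 were highest in week 3 library 1, where the adipocyte mean was lowest, and Csn1s1 and Csn3 were lowest there.

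Muscle genes varied within groups as well as between weeks. The mean of the muscle list was 0.541, 1.3 and 0.564 in the week 3 tumors, -0.487, -0.731 and -0.186 in the week 6 tumors and -0.348 to 1.68 across the glands. Of 29 genes 7 were lower and 1 higher, and 0 in either direction without libraries 2 and 3. Myh4, a fast myosin, scored 2.09, 2.95 and 2.05 in the week 3 tumors and -0.339, -0.503 and 0.445 in the week 6 tumors (difference -2.49, SE 0.939, adjusted p = 0.0278, with library 1 alone -2.22, adjusted p = 0.222), a call that was lost when 1 of the libraries was left out (largest adjusted p = 0.0935). Myl1, a fast myosin light chain, differed by -1.65 (SE 0.606, adjusted p = 0.0243, with library 1 alone -1.21, adjusted p = 0.304), and Tnnc1, the slow troponin C, by 0.215 (SE 0.0807, adjusted p = 0.0273, with library 1 alone 0.27, adjusted p = 0.0764).

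Other cells that a piece of gland can hold were checked by 4 more lists. In the Schwann cell list 6 of 10 were lower and 1 higher, 60% lower against 18.8% over all genes, and 1 and 1 without libraries 2 and 3. Sox10, described above, was called lower with and without those libraries. Ncmap, a protein of noncompact myelin, rose, at -0.409, -0.351 and -0.531 in the week 3 tumors and 0.588, 0.049 and 0.591 in the week 6 tumors (difference 0.839, SE 0.0961, adjusted p = 8.14e-08). Sebaceous and hair follicle genes gave 1 lower of 14, and 0 without libraries 2 and 3, the desaturase Scd3 (difference -0.71, SE 0.253, adjusted p = 0.0204), whose sign turned without libraries 2 and 3 (0.0897, adjusted p = 0.832). Erythroid genes gave 2 lower and 1 higher of 11, and 1 and 0 without libraries 2 and 3. Car2, carbonic anhydrase II, differed by -0.61 (SE 0.113, adjusted p = 6.6e-05), Epor, the erythropoietin receptor, by -0.48 (SE 0.106, adjusted p = 0.000451, with library 1 alone -0.205, adjusted p = 0.218), and Ermap, a membrane protein of red cells, by 0.237 (SE 0.0645, adjusted p = 0.00316, with library 1 alone 0.168, adjusted p = 0.128). The globin gene Hba-a1 was not called, at 0.752, 1.62 and 1.38 in the week 3 tumors and 1.46, 1.14 and 0.879 in the week 6 tumors. Platelet genes gave 2 higher and 1 lower of 6, and 0 without libraries 2 and 3. Itga2b, the platelet integrin, differed by -0.266 (SE 0.0866, adjusted p = 0.0118, with library 1 alone -0.243, adjusted p = 0.141). Gp1ba, the von Willebrand receptor, differed by 0.15 (SE 0.0611, adjusted p = 0.041, with library 1 alone 0.133, adjusted p = 0.245).

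**Figure D4:**
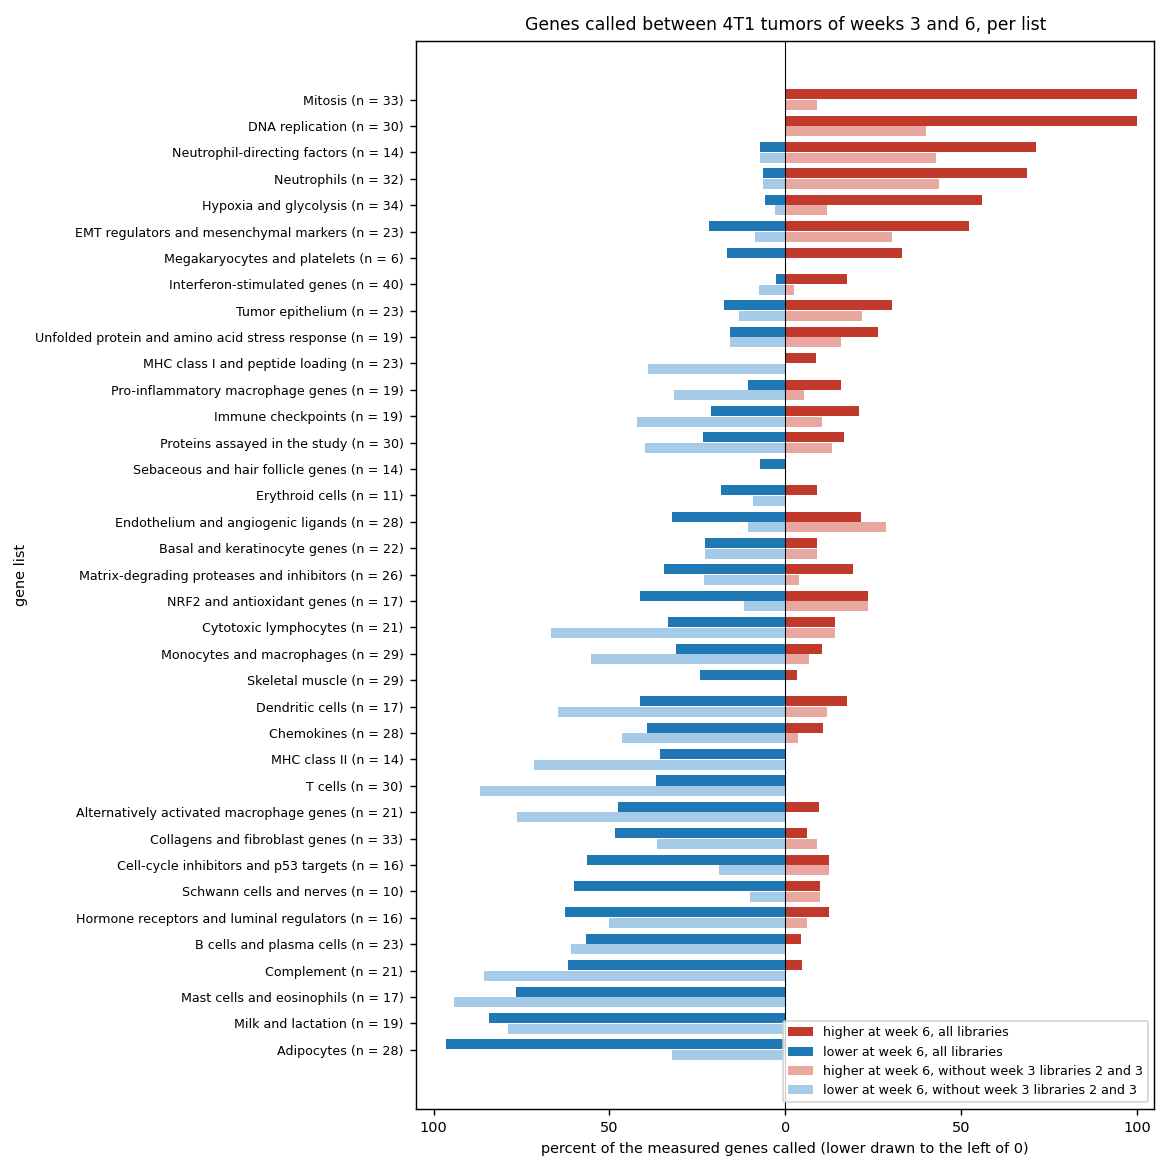
Share of each gene list called higher and lower at week 6 against week 3 in 4T1 tumors, in percent of the genes measured. Bars to the right are higher and bars to the left lower; the lists of DNA replication and mitosis reach 100% higher and adipocytes 96.4% lower, against 34.2% and 18.8% over all genes.

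A list of 30 genes of proteins that the study assayed in these models was used, which leaves out Adgre1 (F4/80), described above. Of the 30, 5 were called higher, 7 lower and 18 were not called, against 4 higher and 12 lower without libraries 2 and 3. The study chose these proteins, so the count is no independent evidence of a direction. The genes that rose were Car9, Csf3, Cxcl2, Ly6g and Mki67, and those that fell were Cd4, Cd163, Foxp3, Krt5, Pecam1, Tnf and Chil1, of which Chil1, a chitinase-like secreted protein, is described here. Chil1 scored 0.539, 1.13 and 1.53 in the week 3 tumors and 0.282, 0.034 and 0.116 in the week 6 tumors (difference -0.925, SE 0.209, adjusted p = 0.000599, with library 1 alone -0.395, adjusted p = 0.248), and the glands averaged 1.58. Of the cytokines not called and not yet described, Il10 scored -0.731, -1.15 and -1.11 in the week 3 tumors and -1.17, -1.25 and -1.24 in the week 6 tumors (with library 1 alone -0.493, adjusted p = 0.0133). Il4 scored -0.494, -0.62 and -0.689 in the week 3 tumors and -0.674, -0.641 and -0.584 in the week 6 tumors. Tgfb1 scored 1.57, 1.18 and 1.21 in the week 3 tumors and 1.47, 1.43 and 1.45 in the week 6 tumors. Lcn2, lipocalin 2, a carrier of iron-binding siderophores, was not called at 1.64, 1.79 and 2.04 in the week 3 tumors and 2.03, 1.84 and 1.63 in the week 6 tumors. Ptprc, the CD45 antigen of all leukocytes, scored 1.93, 1.44 and 1.44 in the week 3 tumors and 1.35, 1.38 and 1.31 in the week 6 tumors (difference -0.256, adjusted p = 0.127, with library 1 alone -0.58, adjusted p = 0.0175). Itgax, CD11c, scored 2.03, 0.948 and 1.14 in the week 3 tumors and 0.944, 0.857 and 0.749 in the week 6 tumors (-0.522, adjusted p = 0.0596, with library 1 alone -1.18, adjusted p = 0.0025), a difference that was called under cyclic loess, quantile normalization and the robust line, and was -0.193 without week 3 library 1 (adjusted p = 0.473). Tnfsf13b, the B cell factor BAFF, scored 0.263, -0.181 and -0.14 in the week 3 tumors and -0.151, -0.344 and -0.126 in the week 6 tumors (-0.188, adjusted p = 0.0867, with library 1 alone -0.47, adjusted p = 0.00161).

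Whether these changes were shared by another tumor line was asked by a test of the difference between the 4T1 and the Py230 change. In Py230 tumors 1305 genes (6.03%) were called between the same weeks, 858 higher (3.96%) and 447 lower (2.06%). The 4T1 change lay above the Py230 change in 3862 genes (17.8%) and below it in 1922 (8.88%), in all 5784 genes (26.7%). The share of these differences that were above was 66.8%, and 49.3% after cyclic loess. With 4T1 library 1 alone for week 3, 4530 genes were called, 2490 above (11.5%) and 2040 below (9.42%), or 55% above. The Py230 tumors of week 3 were not alike either, with mean adipocyte scores of 0.605, 1.62 and 1.86 against 0.316, 0.432 and 0.974 at week 6, and mean mitosis scores of 0.759, 0.534 and 0.19 against 0.788, 0.792 and 0.656. Leaving out Py230 week 3 library 3 raised the count of differing genes to 6991, and leaving out library 1 lowered it to 4730. The part of these differences between libraries in the counts was not tested. The strain of the host and the number of cells inoculated differ between the models, and only 4T1 cells carried luciferase. These differences cannot be told apart from the cell line. Msln scored -1.79, -1.82 and -1.77 in the week 3 and -1.87, -1.86 and -1.84 in the week 6 Py230 tumors, and its change differed between the models by 2.24 (SE 0.237, adjusted p = 1.67e-07). Hmga2 scored -1.59, -1.87 and -1.89 and -1.71, -1.91 and -1.82 in Py230 tumors, a difference of 2.64 (SE 0.323, adjusted p = 1.27e-06) between the changes, and Gzmg -2.09, -2.25 and -2.27 and -2.1, -2.2 and -2.15, a difference of 2.6 (SE 0.487, adjusted p = 0.000285). These genes stayed low in all 6 Py230 tumors. For Kdm4dl the changes differed by 2.27 (SE 0.242, adjusted p = 1.82e-07).

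Genes that moved in opposite directions were found as well. Clca1, a secreted regulator of chloride channels and mucus, scored 1.21, 0.736 and 0.505 in the week 3 tumors and -1.24, -1.27 and -1.26 in the week 6 tumors of 4T1, but -0.00742, -0.317 and -1.06 at week 3 and 1.02, 1.13 and 0.827 at week 6 in Py230. The difference between the changes was -3.53 (SE 0.515, adjusted p = 1.46e-05), the largest among genes of at least average level. Aox3, an aldehyde oxidase, scored -0.283, 0.353 and 0.0803 in the week 3 tumors and -1.12, -1.06 and -1.02 in the week 6 tumors of 4T1, and -0.294, -0.212 and -0.138 and 0.718, 0.823 and 0.607 in Py230, a difference of -2.05 (SE 0.22, adjusted p = 2.06e-07). For both genes the week 6 tumors lay below all week 3 tumors in 4T1, where absence of overlap was a condition for naming them. In Py230 they lay above all week 3 tumors. Col6a5 and Mrgprg, which fell in 4T1, were low at both weeks in Py230, with Col6a5 at -1.4, -0.948 and -0.557 and -1.17, -1.11 and -1.07, and their changes differed by -2.22 (SE 0.375, adjusted p = 8.97e-05) and by -2.16 (SE 0.446, adjusted p = 0.000765). By list, the 4T1 change was the higher for 14 neutrophil genes and the lower for 2 of 32, the lower for 11 of 19 milk genes, 10 of 17 mast cell and eosinophil genes and 8 of 17 dendritic cell genes, and the higher for 10 of 30 replication genes and 4 of 33 mitosis genes. With 4T1 library 1 alone for week 3 these were 6 and 2 neutrophil genes, 9 milk genes, 7 mast cell and eosinophil genes, 10 dendritic cell genes, 2 replication genes and 0 mitosis genes. Of the 8 genes named in this comparison, all were still called then, with Hmga2 at 1.58 (adjusted p = 7.74e-07). The lists given above are a selection. With all libraries the 4T1 change was also the lower for 4 of 30 T cell genes and 6 of 23 B and plasma cell genes. It was the lower for 6 of 21 alternatively activated macrophage genes and 5 of 14 MHC class II genes, with 0 higher in each of these lists. With 4T1 library 1 alone for week 3, more genes of each were lower, most of all T cell genes. The median mitosis change in Py230 was 0.263, with 0 genes called by limma.

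**Figure D5:**
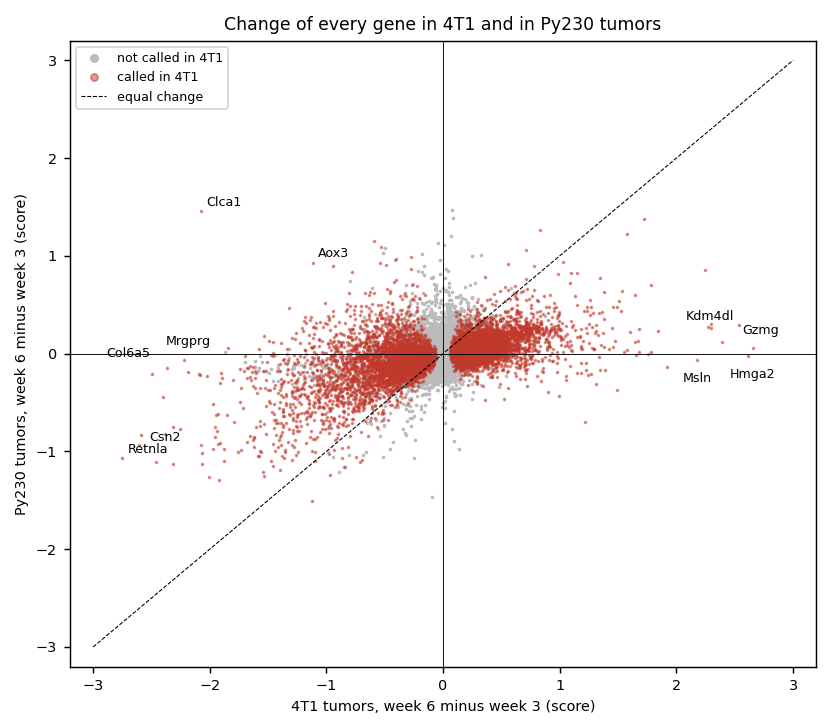
Change of each of the 21650 genes from week 3 to week 6 in score units, in 4T1 tumors (horizontal axis) and in Py230 tumors (vertical axis). Colored points are the 11481 genes called between weeks 3 and 6 in 4T1 tumors. Clca1 and Aox3 lie at the upper left, lower in 4T1 and higher in Py230.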

How the data were processed

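RNA of snap-frozen primary tumors and glands was sequenced in paired ends in 36 libraries, 3 for each of 12 groups. The authors aligned the reads to mm10 with STAR, counted them with GenomicAlignments and normalized and compared them with DESeq2, with versions not given in the sources used here. The deposited matrix holds a score for each gene and library that the authors centred and scaled within each library, by steps that no source used here describes, so read depth is unknown and no count test was run. The deposited DESeq2 tables also hold fold changes and p-values of 4T1 against Py230 tumors, which were not used. From 1 of them the authors' mean normalized count, pooled over libraries, was taken to describe the score unit. Set membership of 28 Hallmark sets came from a deposited table.

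Scores were fitted with limma 3.58.1 in R 4.3.3, with 1 mean for each of the 12 groups over all 36 libraries, a trended and robust variance, two-sided tests and Benjamini-Hochberg adjusted p over 21650 genes, and were first tested on simulated data. Symbols came from the deposited table for 16266 genes and from the reference for 5384. Coordinates are of GENCODE vM21 (GRCm38) and promoters of RefSeq (GRCm38.p6). Genes were named by rule. For each direction these were the 12 called genes that differed most, provided that the libraries did not overlap, the higher group averaged at least 0 and the symbol was not of the Gm-number or Rik kind, with the 2 smallest p of each list, the 30 listed genes of assayed proteins, the 4 largest differences from Py230 in each direction on the same conditions, and defining cell type markers. Some genes that the rules name are not reported here. Genes outside these rules are said to be chosen after their values were seen. The members and lists were chosen with earlier results of these data known. Same-numbered 4T1 tumors of weeks 3 and 6 did not deviate together, so the numbers were not used as pairs. Alternatives were other scalings, other variance models, fewer groups or genes, a replicate block, and each library left out in turn.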

Additional observations from a re-analysis of the deposited data

Results flagged for a closer look

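The change from week 3 to week 6 differed between models for many genes, by limma's test of the difference of the changes. Between 4T1 and Py230 tumors it differed for 5784 genes, and between 4T1 tumors and BALB/c Matrigel glands for 8008 genes. Both comparisons hold the same 6 tumor libraries of 4T1.

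Among genes with an average score of at least 0 in the higher group, the change was larger in 4T1 than in Py230 by 2.64 score units for Hmga2, by 2.6 for Gzmg, by 2.27 for Kdm4dl and by 2.24 for Msln. It was lower in 4T1, with a difference of -3.53 for Clca1, -2.22 for Col6a5, -2.16 for Mrgprg and -2.05 for Aox3. For Clca1 the change was -2.08 in 4T1 and 1.45 in Py230, and for Aox3 it was -1.12 and 0.931. The causes of these differences were not tested. Host strain, the number of cells inoculated and the luciferase of 4T1 cells cannot be told apart from the cell line.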

How the results depend on the processing

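The count of genes called between weeks 3 and 6 was 6974 among genes with a mean of at least 0, 7293 without week 3 libraries 2 and 3, and 9951 to 11829 with each library left out in turn. When only the groups of the contrast were fitted it was 8334, and with arrayWeights it was 13932. Counts among genes with a mean of at least 0 come from fewer genes tested, so they are not a loss of calls. For the Matrigel glands the count was 15 with arrayWeights, 1207 by unadjusted p and 0 to 0 with each library left out. For the 4T1 minus Matrigel change it was 5029 among genes with a mean of at least 0, 5271 without libraries 2 and 3, and 6588 to 9053 with each library left out. For the 4T1 minus Py230 change it was 3358 when only the groups of the contrast were fitted, 11202 with arrayWeights, whose iteration stopped before it converged, and 4730 to 6991 with each library left out. The 4T1 minus Matrigel count was 6150 when only the groups of the contrast were fitted and 11591 with arrayWeights. The causes were not tested. With a replicate block the counts were 11712, 0, 8343 and 6052. The numbers do not pair the samples: deviations of same-numbered tumors correlated at 0.0305, -0.045 and -0.0724, and 1 of 3 week 3 and 0 of 3 week 6 tumors correlated best with their own number. The block changed the call of 1 named gene, Itgax (adjusted p = 0.0376).

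Over 2324 pairs of a named gene and an alternative, 2173 kept direction and call, 113 lost the call, 35 gained it and 3 turned sign. The 3 were Arg1 (-0.364), Psme1 (-0.0442) and Scd3 (0.0897), all without libraries 2 and 3. The shares of called genes that were higher were 67.6% after robust rescaling, 63% after quantile normalization and 61.5% without libraries 2 and 3. Depth is unknown, so no counting error can be given, and a score near the bottom of the scale cannot be told from absence.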

Other observations

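Xist, the transcript of the inactive X chromosome in female cells, was chosen after its values were seen. It scored 2.21, 2.23 and 2.25 in the week 3 tumors and 1.54, 1.77 and 1.67 in the week 6 tumors, a difference of -0.574 (adjusted p = 1.92e-08 by limma). The groups did not overlap, and week 3 library 1 was level with libraries 2 and 3.

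Of the other Hallmark sets of the study, adipogenesis had 99 of 193 genes lower and 9 higher, and fatty acid metabolism had 66 of 149 lower and 23 higher. Without week 3 libraries 2 and 3 these were 30 lower and 13 higher, and 19 lower and 19 higher. The allograft rejection set, which holds many T cell genes, had 39 of 179 genes higher and 31 lower with all libraries, but 22 higher and 63 lower without libraries 2 and 3. The inflammatory response set had 44 of 184 higher and 49 lower, and 21 higher and 59 lower without them. In these immune sets the number of lower genes was larger when library 1 alone stood for week 3.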
